A study of Homo sapiens with 2 samples.

Results

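The intermediate filament genes outside the keratin family, together with the gene of their linker plectin, were examined in doxorubicin-resistant SUM159 cells by bulk RNA-seq. The 10 genes VIM, DES, GFAP, NES, SYNM, INA, LMNA, LMNB1, LMNB2 and PLEC were taken by their symbols from the 23368 gene symbols of the count files, and all 10 were found. SUM159 is a triple-negative breast cancer cell line, labelled here with the genotype Wt, and was grown attached to the dish in serum with insulin and hydrocortisone. Resistance was raised over a long time by exposure to rising amounts of doxorubicin, a topoisomerase II poison, with recovery in medium free of the drug, and the labels do not say whether the resistant cells are 1 clone or a mixed population. Both polyA RNA libraries, replicates 1 and 2, belong to this 1 condition, so no comparison with untreated cells was made. Whether each library had its own culture is not stated, and the spread between them may be technical. They held 23044084 and 17985508 counts inside genes, and values are given as counts per 1000000 counts of the library (CPM), 1 count being 0.0434 CPM in replicate 1 and 0.0556 in replicate 2. A count of 0 allows up to 0.130 and 0.167 CPM in these libraries, taking 3 counts as the limit, and such limits and the intervals given here cover counting error only.

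Intermediate filaments are rope-like polymers of proteins that share a central coiled-coil rod. Vimentin is the filament protein of mesenchymal cells and is a common marker of the epithelial-to-mesenchymal transition, desmin is that of muscle and GFAP that of astrocytes. Nestin and synemin are long proteins that join filaments of other family members, and alpha-internexin, the product of INA, belongs to neurons. The lamins form the meshwork under the inner nuclear membrane, where the A-type lamins come from LMNA and the B-type lamins from LMNB1 and LMNB2. Plectin is not a filament protein but a very large crosslinker of the plakin family that ties filaments to actin, to integrin adhesions and to the nuclear envelope.

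The kinship of the genes can be read in the coding bases for the end of the rod, the stretch by which family members are recognised, and those of 6 genes are shown because genes that share it ranged here from one of the most abundant transcripts to a single count over both libraries. The following 30 bases were read from the canonical GENCODE transcripts and were identical to GRCh37, and capitals mark bases that differ from VIM at the same place.
VIM: acctacaggaagctgctggaaggcgaggag
DES: acctacCggaagctgctggaGggAgaggag
INA: GcTtacaggaaActgctggaaggcgaggag
NES: acGtacaggaCCctCctggaGgCTgagAaC
LMNB1: GcTtacaggaaActCTtAgaaggcgaAgaA
LMNB2: GcctacCggaagctCctggaGggcgaggag
The VIM stretch lies at chr10:17277354-17277383 on the plus strand, inside 1 exon, while those of INA and NES each span an intron. DES and INA shared 27 of the 30 bases with VIM, LMNB2 26, LMNB1 22 and NES 21. Over whole coding sequences, VIM was 69.0% identical to DES and 62.6% identical to LMNA at aligned bases. Windows of 100 bases, the read length of the study, were compared in the sense direction of the GENCODE transcripts. None was shared exactly between any of the 10 genes and another gene. Overlaps on opposite strands, given below, were not covered.

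Of the genes for filament proteins of the vimentin type, VIM was among the most abundant transcripts of the cell while DES and GFAP were near 0. VIM had 188008 counts in replicate 1 and 124542 in replicate 2, which is 8159 and 6925 CPM. Unscaled for length, its CPM ranked number 2 of all symbols in each library, between the elongation factor gene EEF1A1 with 8377 ± 921 CPM and the actin gene ACTB with 6719 ± 572 CPM (SD, n = 2 each). By itself VIM made up 81.3% of the counts of the 10 genes in replicate 1 and 75.8% in replicate 2. All 10 genes together took 1.00% of the counts of replicate 1 (exact 95% binomial interval 1.00 to 1.01%) and 0.913% of those of replicate 2 (0.909 to 0.917%).

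DES lies on chromosome 2 of GRCh37 from 220283099 to 220291457. It was counted 9 times in replicate 1 and 0 times in replicate 2. The 9 counts are 0.391 CPM, with an exact 95% Poisson interval from 0.179 to 0.741 CPM. The same interval for the 0 counts of replicate 2 reaches 0.205 CPM, so the intervals overlap, which is no test of a difference. The test of the libraries given below called DES only without a filter on low counts. The lower end of 0.179 CPM is only just above the limit of 3 counts. GFAP, on chromosome 17 from 42980527 to 42994305, had 2 and 0 counts, within that limit in both libraries. Most genes that mark the cells in which these filaments are known were low as well. Of 8 muscle markers none exceeded 3 counts in both libraries, against 58.3% of all symbols. The highest was MYH11 with 4 and 1 counts, and 5, among them the myogenic factor MYOD1, had no counts. The summed level of the 8 was 0.174 and 0.167 CPM in replicates 1 and 2. The 8 markers of astrocytes and glia summed to 27.6 and 36.4 CPM, nearly all of it from the glutamate transporter SLC1A3 with 30.5 ± 5.73 CPM (SD, n = 2). Of these 8, 3 exceeded 3 counts in both libraries, against 58.3% of all symbols. Besides SLC1A3 these were MBP with 14 and 21 counts and ALDH1L1 with 13 and 9. The water channel gene AQP4 and the glial genes S100B and OLIG2 had no counts.

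**Figure D1:**
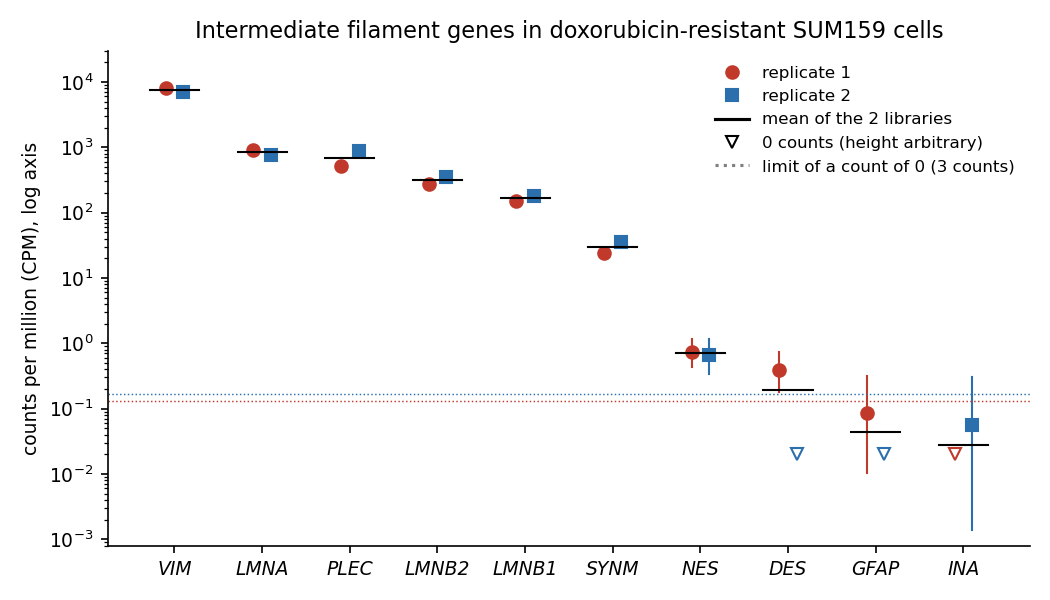
Level of each of the 10 genes, as CPM on a logarithmic scale, in replicate 1 (circles) and replicate 2 (squares) of the doxorubicin-resistant cells, with vertical lines for exact 95% Poisson intervals of the counts, horizontal bars for the mean and dotted lines for the limit of 3 counts in each library. The genes fall into 6 between 24.0 and 8159 CPM and 4 below 1 CPM, and open triangles mark libraries with 0 counts.

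Among the genes of nestin, synemin and alpha-internexin, SYNM was moderately expressed, and NES and INA were close to or within the limit of detection. SYNM is on chromosome 15 of GRCh37 from 99638420 to 99675798, and its 554 and 645 counts amount to 24.0 CPM for replicate 1 and 35.9 CPM for replicate 2. A mean count of 20 or more, the minimum that the study set for bulk RNA-seq, was reached by 12340 genes, whose median was 34.1 CPM. NES, on chromosome 1 from 156638555 to 156647199, had 17 and 12 counts. These are 0.738 CPM for replicate 1 and 0.667 CPM for replicate 2, with exact 95% Poisson intervals of 0.430 to 1.18 and 0.345 to 1.17 CPM, so the libraries were not apart and both intervals lay above the limit of 3 counts. Per base of all exons, VIM exceeded NES 11897-fold in replicate 1 and 11165-fold in replicate 2, and per base of canonical transcript 28588-fold and 26828-fold. INA, on chromosome 10 from 105036895 to 105050103, had 0 and 1 counts, although 452 of its exonic bases are shared on the opposite strand with NT5C2, a nucleotidase gene that had 1360 and 1213 counts. SYNM shares 2027 exonic bases with the antisense gene SYNM-AS2, and VIM 656 with VIM-AS1. GFAP shares 2232 on the opposite strand with CCDC103, a gene with 82 and 63 counts, and 1958 with FAM187A. DES shares 104 with an antisense noncoding RNA gene. The kit keeps the strand, but the strand setting of the counting was not given in the sources used here, so reads in these overlaps cannot be assigned.

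Of 8 further genes of the non-keratin family, 3 reached the minimum mean count, against 52.8% of all symbols, with a median of 0.0495 CPM over the list. The neurofilament genes NEFM and NEFH and the peripherin gene PRPH had no counts, and NEFL had 2 and 1. IFFO2, an orphan member of the family, was the highest of the list with 45.6 ± 19.8 CPM (SD, n = 2), and the lens filament gene BFSP1 had 2.22 ± 0.303 CPM (SD, n = 2). Of 8 neuron markers, 3 exceeded 3 counts in both libraries, against 58.3% of all symbols. The summed level of the 8 was 58.9 and 51.4 CPM, of which the synaptic gene SNAP25 supplied 52.2 ± 4.90 CPM (SD, n = 2). MAP2 had 2 counts in each library, and ELAVL3 had 1 and 0.

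All 3 lamin genes were well expressed, LMNA above each B-type gene per length in each library. LMNA, at bases 156052364 to 156109872 of chromosome 1 of GRCh37, had 21009 and 13724 counts, which is 912 CPM for replicate 1 and 763 CPM for replicate 2. In the order of mean CPM it was number 107 of all symbols, between the cytokine receptor gene IL6ST with 850 ± 236 CPM and the protein disulfide isomerase gene P4HB with 832 ± 34.4 CPM (SD, n = 2 each). LMNB2, on chromosome 19 from 2427636 to 2456957, had 6373 and 6354 counts, that is 277 and 353 CPM. LMNB1, on chromosome 5 from 126112315 to 126172712, had 3526 and 3237 counts, that is 153 and 180 CPM. Thus LMNA was higher in replicate 1 and both B-type genes in replicate 2.

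A ratio of A-type to B-type lamin is often used to describe the lamina, which is rich in A-type lamin in stiff tissues. In raw counts, LMNA had 2.12 times the sum of LMNB1 and LMNB2 in replicate 1 and 1.43 times in replicate 2. Divided by canonical transcript length, the ratio was 2.55 and 1.73. Divided by the length of all annotated exons, it was 1.20 and 0.815, so that whether A-type exceeded B-type transcripts in replicate 2 turned on the length used. The exons of the 42 annotated LMNA transcripts add up to 8141 bases, against 3178 bases for the canonical one. LMNB2 exceeded LMNB1 by all of these measures, by 1.22 and 1.32 times over all exons and by 1.13 and 1.22 times over canonical transcripts. Counts per gene do not separate lamin A from lamin C, the splice forms of LMNA.

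The lamins end in a signal for the attachment of a farnesyl lipid, present in B-type lamins and in the precursor of lamin A but not in lamin C. The last 30 coding bases of the canonical transcripts are shown because the enzymes named next act on what they encode, and the 4 final codons, which begin with a cysteine codon, stand in capitals.
LMNA: acccagagcccccagaacTGCAGCATCATG
LMNB1: agagcatccaatagaagcTGTGCAATTATG
LMNB2: aggaccacctcaagaggcTGCTACGTGATG
The LMNB1 stretch lies at chr5:126171924-126171953 on the plus strand and that of LMNB2 at chr19:2430912-2430941 on the minus strand, while that of LMNA spans an intron. Of 6 genes for lamin processing, 5 reached the minimum mean count, against 52.8% of all symbols. ICMT, the methyltransferase that acts on the farnesylated cysteine, was the highest with 255 ± 23.0 CPM, and ZMPSTE24, the protease that trims prelamin A, had 91.9 ± 1.71 CPM (SD, n = 2 each). FNTA, the subunit that farnesyltransferase shares with a related enzyme, had 67.9 ± 5.08 CPM (SD, n = 2). FNTB, the subunit particular to farnesyltransferase, was the lowest, with 6 and 10 counts or 0.408 ± 0.209 CPM (SD, n = 2). Overlaps with other annotated genes were examined for the 10 genes only. Whether FNTB lost reads that also fit another gene was not tested, so its low count may not be its level.

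Genes for nuclear envelope partners of the lamins were nearly all expressed as RNA. Of 13 such genes 12 were matched, SYNE4 under its older symbol C19orf46. The minimum mean count was reached by 11 of these, against 52.8% of all symbols, and the median of the 12 was 94.5 CPM. The highest was SYNE2, which links the nucleus to the cytoskeleton, with 297 and 712 CPM in replicates 1 and 2, and the lowest was C19orf46 with 14 and 9 counts. TMPO, the gene of the lamina-associated protein LAP2, had 248 ± 28.8 CPM, the SUN protein genes SUN1 and SUN2 had 220 ± 29.1 and 179 ± 2.59 CPM, and the lamin B receptor gene LBR had 92.0 ± 10.4 CPM (SD, n = 2 each). All 6 genes listed for kinases that phosphorylate vimentin or lamins reached the minimum mean count, against 52.8% of all symbols. They ranged from AURKB, a kinase of mitosis and cytokinesis, with 34.1 ± 2.53 CPM to PLK1, another mitotic kinase, with 136 ± 2.88 CPM (SD, n = 2 each).

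The linker gene PLEC was well expressed, and of the 6 well-expressed genes it was the one whose libraries lay furthest apart. PLEC, at bases 144989321 to 145050902 of chromosome 8 of GRCh37, was counted 11819 and 15684 times, making 513 CPM for replicate 1 and 872 CPM for replicate 2. Its place in the order of mean CPM was number 151, next to the ribosomal protein gene RPLP2 with 694 ± 221 CPM and the aminopeptidase gene ANPEP with 689 ± 96.5 CPM (SD, n = 2 each). Of the 6 other plakins, 3 reached the minimum mean count, against 52.8% of all symbols. DST, which encodes dystonin, had 113 and 293 CPM in replicates 1 and 2, and MACF1, a linker of actin and microtubules, had 85.1 and 187 CPM. Per base of canonical transcript, PLEC exceeded DST 7.56-fold and 4.97-fold and MACF1 9.91-fold and 7.65-fold in replicates 1 and 2. Per base of all exons these ratios were 12.8 and 8.43 for DST and 25.04 and 19.3 for MACF1. The desmosomal plakin gene DSP had 13.1 ± 3.49 CPM (SD, n = 2), and the genes of periplakin and envoplakin, PPL and EVPL, had 1 and 2 and 3 and 1 counts.

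Levels of different genes were compared per length, as transcripts per 1000000 (TPM), with the length of all annotated exons. VIM had 6905 TPM in replicate 1 and 6626 TPM in replicate 2, number 6 of all genes by the mean and 14.2 times LMNA, which had 491 and 464 TPM. Next came LMNB2 with 225 and 324 TPM, LMNB1 with 184 and 245 TPM, and PLEC with 132 and 254 TPM. The ranges of LMNB2 and LMNB1 overlapped, as did those of LMNB1 and PLEC, although LMNB2 exceeded LMNB1 within each library. With the longest or the mean transcript length, the ranges of LMNB2 and LMNB1 did not overlap. SYNM followed with 13.5 and 22.9 TPM, and PLEC exceeded it 10.6-fold by the means. NES had 0.580 and 0.594 TPM, and the order of DES, INA and GFAP around and below it rested on a few counts. With canonical transcript lengths, VIM had 8556 ± 47.7 TPM and LMNA 644 ± 9.94 TPM (SD, n = 2 each), and the 6 genes kept the same order, with LMNB2 at 169 ± 47.2, LMNB1 at 143 ± 31.8 and PLEC at 117 ± 54.9 TPM (SD, n = 2 each).

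**Figure D2:**
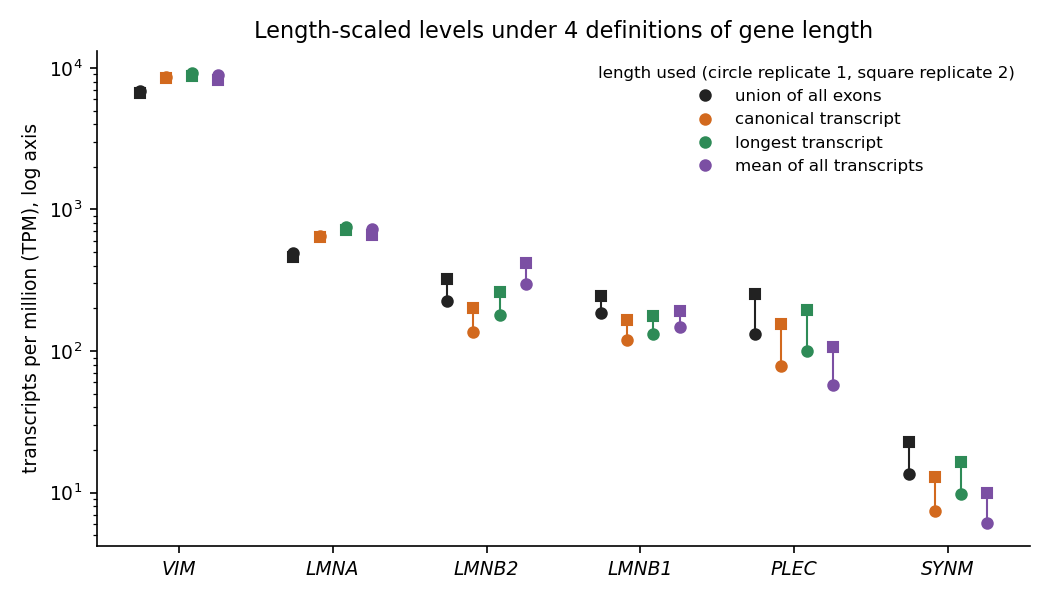
TPM on a log axis of the 6 well-expressed genes with gene length taken in 4 ways, given by colour, where circles are replicate 1 and squares replicate 2 of the doxorubicin-resistant cells. VIM lies above LMNA, and LMNA above the other 4 genes, under every length, while the ranges of LMNB2, LMNB1 and PLEC overlap with the union of all exons and PLEC lies below both with the mean transcript length.

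The number of genes above the minimum count was set against all symbols. Of the 10 genes, 6 reached the mean count of 20, namely VIM, LMNA, PLEC, LMNB2, LMNB1 and SYNM, against 52.8% of all symbols. With NES, 7 exceeded 3 counts in both libraries, against 58.3% of all symbols. The median of all 10 genes was 98.2 CPM and that of all symbols 1.89 CPM. These shares were close to those of all symbols and are no result about the 10 genes.

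For each gene the libraries were compared by edgeR's exact binomial test, which sets these libraries, and not conditions, against each other. With 1 library on each side its p values are judged against counting error alone and treat reads as independent molecules, so a call says only that the libraries differ beyond counting error. The spread between the libraries over all genes, as the biological coefficient of variation of edgeR, was 22.3%. Of the 10 genes, 7 had the 10 counts over both libraries that were asked for, and 6 of these differed at an adjusted p below 0.05, 2 being higher in replicate 1 and 4 in replicate 2. The same test called 57.7% of the 13744 genes tested, 27.6% higher in replicate 1 and 30.1% higher in replicate 2. After removal of a trend on the length of all exons 6 were called, against 52.9% of the genes then tested, but no such test was run for canonical length, where PLEC and VIM lay near the trend. Without a filter on low counts 7 were called, DES included, against 46.4%. VIM was 1.18-fold and LMNA 1.19-fold higher in replicate 1, with an adjusted p of 5.99e-58 for LMNA in this exact test. LMNB1 was 1.18-fold, LMNB2 1.28-fold, SYNM 1.49-fold and PLEC 1.70-fold higher in replicate 2, with adjusted p values of 1.29e-10 for LMNB1, 2.29e-42 for LMNB2 and 2.68e-11 for SYNM by the exact binomial test. The p values of VIM and PLEC were too small to be written by the software. NES did not differ (exact binomial test, adjusted p = 0.899), with its 17 and 12 counts leaving little power.

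The spread between the libraries was below that of most expressed genes for VIM, LMNA and LMNB1 and above it for LMNB2, SYNM and PLEC. The coefficient of variation between the libraries was 11.6% for VIM, 12.6% for LMNA, 11.5% for LMNB1 and 17.2% for LMNB2, and the median over the 12340 genes at the minimum mean count was 14.4%. It was 27.9% for SYNM and 36.7% for PLEC, and 19.0% and 10.03% of those genes had a larger one.

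In the lists around these genes, calls are to be read against the 27.6% of all genes tested that were higher in replicate 1 and the 30.1% higher in replicate 2. The test called 1 gene of lamin processing higher in replicate 1 and 2 in replicate 2 of 6 tested, and the same numbers among the 6 kinases. Of 12 genes of the nuclear envelope, 2 were called higher in replicate 1 and 7 in replicate 2. All 4 plakins tested besides PLEC were higher in replicate 2, DST with a log2 ratio of -1.37 and MACF1 with -1.14. The calls of these lists took no account of gene length, which moved with the difference between the libraries, as given below. The mesenchymal markers summed to 4659 and 8165 CPM in replicates 1 and 2, of which FN1 alone had 2027 and 5101 CPM. Of these 8 markers, 7 were called higher in replicate 2, unlike VIM, with log2 ratios from -1.33 for FN1 to -0.13 for SPARC. TWIST1 was called higher in replicate 1, with a log2 ratio of 0.94.

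Gene length moved with the difference between the libraries across all genes. The log2 ratio, replicate 1 over replicate 2, had a rho of -0.55 (Spearman) with the length of all exons over 10767 genes, which are not independent and share both libraries. With canonical transcript lengths, rho was -0.68 over 10722 genes. Against a smoothed trend on canonical length, PLEC, at 14804 bases the longest of the 10 genes, lay on the trend: its log2 ratio was -0.77 and its residual 0.0086. VIM also lay close to it, with a log2 ratio of 0.24 and a residual of 0.06. The residuals of SYNM and LMNB2 were -0.11 and -0.15, and those of LMNA and LMNB1 were 0.26 and -0.28, all within the SD of 0.37 over all genes. LMNA and LMNB1, whose canonical transcripts of 3178 and 2890 bases are close in length, thus lay on opposite sides of the trend. With the length of all exons the residuals of all 6 genes were larger in size, at 0.46 for LMNA, 0.25 for VIM, -0.36 for LMNB1, -0.32 for LMNB2 and -0.40 for SYNM and -0.32 for PLEC. What made the libraries differ with length was not tested.

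**Figure D3:**
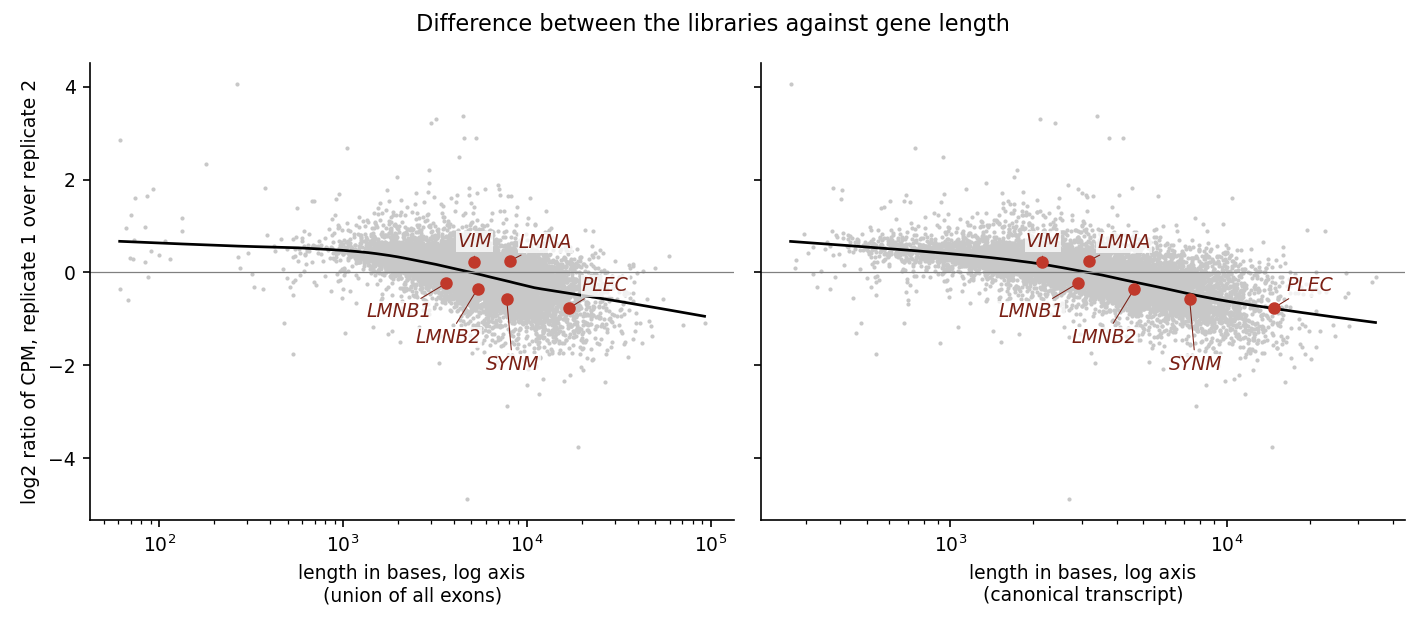
Log2 ratio of CPM, replicate 1 over replicate 2, against length in bases on a log axis, for the union of all exons (left) and the canonical transcript (right), with grey points for genes at the minimum mean count of 20, a black line for the smoothed trend and red points for the 6 well-expressed genes. PLEC lies at -0.77 and on the trend in the right panel, and LMNA and LMNB1 lie on opposite sides of the line in both.

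The cells were also checked against markers of their line. The hormone receptor genes ESR1 and PGR had 11 and 9 and 2 and 0 counts, and ERBB2, the gene of HER2, had 99.7 ± 6.56 CPM (SD, n = 2). All 8 mesenchymal markers reached the minimum mean count, against 52.8% of all symbols. Their median was 150 CPM, from TWIST1 with 6.17 ± 2.75 CPM (SD, n = 2) to the fibronectin gene FN1 with 2027 and 5101 CPM in replicates 1 and 2. Of 6 epithelial markers 2 reached that minimum, TP63 with 84.1 ± 14.6 CPM and KRT14 with 14.9 ± 6.61 CPM (SD, n = 2 each). The E-cadherin gene CDH1 had 9 and 13 counts and EPCAM 6 in each library. The lowest epithelial marker, KRT5, had 2 counts in each library. The leukocyte markers summed to 17.9 and 9.73 CPM, with CD14 the highest at 356 and 137 counts, PTPRC at 48 and 31, CD79A at 7 and 6 and CD3E at 0. The endothelial markers summed to 1.08 and 1.11 CPM, with PECAM1 the highest at 24 and 20 counts and VWF and KDR at 0. VIM is a gene that leukocytes and endothelial cells also express. The libraries are labelled as SUM159, a breast cancer cell line, and whether any other cells were present was not tested.

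**Figure D4:**
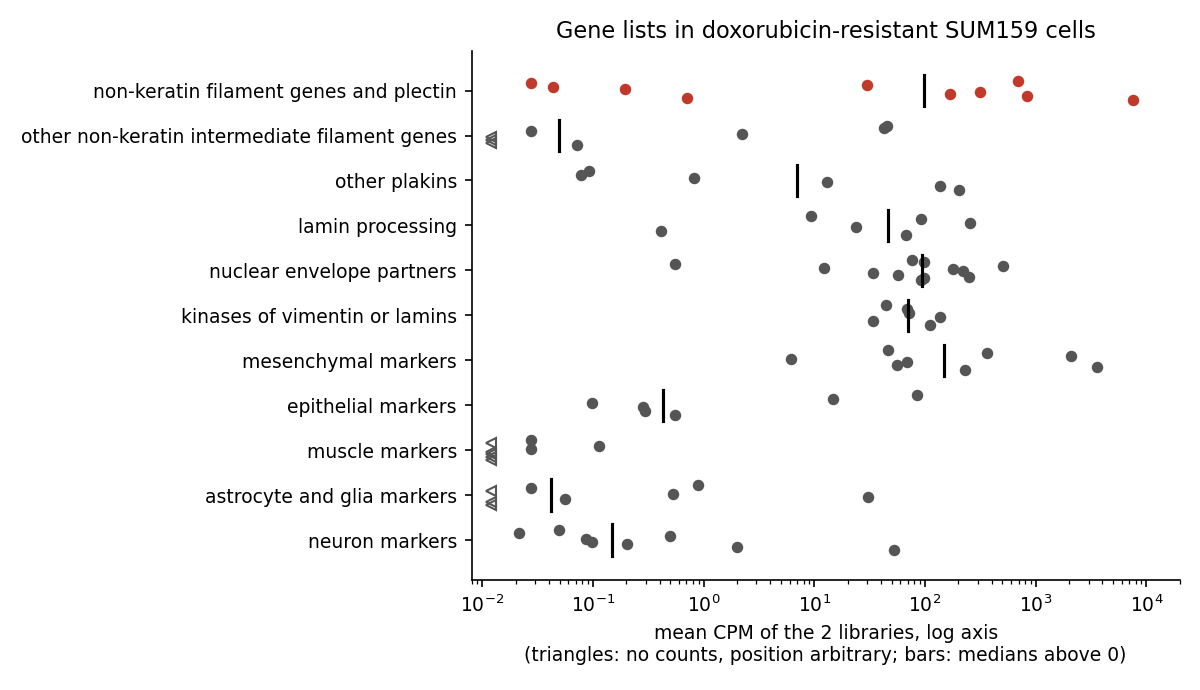
Mean CPM over the 2 doxorubicin-resistant libraries (logarithmic axis) for genes in 11 lists, each point being a gene and black bars medians above 0, with the 10 genes described here in red at the top. The muscle markers all lie below 0.2 CPM, and the mesenchymal markers run from 6.17 to 3564 CPM.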

How the data were processed

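Bulk RNA-seq counts of 2 libraries of doxorubicin-resistant SUM159 cells, labelled as replicates of 1 group, were analysed. The values are raw, whole-number counts per gene symbol as the authors deposited them. By their methods and the submitters' processing notes, reads passed FastQC, HISAT2 aligned them (build hg19) and HTSeq did the counting, and the notes also list deepTools. The sources used here give no versions, gene annotation, strand setting or treatment of reads with several matches, and the labels and the methods name different RNA extraction reagents.

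CPM were computed from library totals over all 23368 symbols. Coordinates, lengths and sequences came from the GENCODE annotation of GRCh37, the genome of hg19, in which 82.6% of symbols matched 1 gene. TPM used the union of exons of these 19313 genes. The older symbol of SYNE4 came from RefSeq (GRCh38.p14), and SYNE3, for which more than 1 listed symbol fitted, was not used. The 10 genes, the lists and the tests were chosen with earlier results of these data known. All 10 genes are named, and of the other gene lists the highest, the lowest and genes a result turns on. The rule did not cover the cell type markers. Markers and genes given besides, such as NEFL, MAP2, LBR, SUN1, SUN2, TMPO, FNTA, ZMPSTE24, CDH1 and EPCAM, were chosen after their values were seen. Some sequences and 1 marker gene are not reported here. For VIM, LMNA and PLEC the genes next in mean CPM are named.

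Libraries were compared over 13744 genes with at least 10 counts over both by the exact binomial test of edgeR with Benjamini-Hochberg adjustment, and the log2 ratio was set against log10 length by lowess with a span of 0.3. Both were tested on simulated data first, where the binomial test missed part of the seeded 2-fold changes of genes with few counts. Each library's depth sets its limit of detection, 3 counts. Alternatives covered scaling, filters, test, gene length and leaving out either library. Software was edgeR 4.0.16 and DESeq2 1.42.0 (size factors only) in R 4.3.3, and statsmodels 0.14.6, scipy 1.17.1, biopython 1.88, matplotlib 3.10.9, pandas 2.3.3 and numpy 2.4.6 in Python 3.11.15.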

Additional observations from a re-analysis of the deposited data

How the results depend on the processing

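The 6 genes with a mean count of at least 20 became 7 with a minimum of 10, through NES, and were 6 with a minimum of 100. With 1 library left out they numbered 6 in each case, and those above 3 counts were 7 or 8, DES being added when replicate 2 was left out. The share of all counts was 0.913 to 1.00% with 1 library left out, against a mean of 0.958%. CPM of all 10 genes moved by less than 1 SD under TMM scaling, DESeq2 size factors and totals without the 10 most abundant genes. The number of genes that differed between the libraries was 6 under TMM, DESeq2 size factors, a minimum of 100 counts, a chi-square test and a term for the length of all exons, and 7 without a filter, where DES was added (exact binomial test of edgeR, adjusted p = 0.0149). TPM moved by more than 1 SD for 4 of 10 genes with the longest transcript, for 8 with the mean transcript length and, an alternative chosen after seeing the data, for 6 with the canonical transcript. On canonical length, also chosen after seeing the data, the residual of PLEC from the trend was 0.0086, against a log2 ratio of -0.77, so PLEC lay on the trend. For no other of the 6 called genes did the residual differ in sign from the log2 ratio. No paired analysis was possible because there is 1 group.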

Other observations

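Keratins of simple epithelia were expressed beside vimentin in the doxorubicin-resistant cells. Of 4 such genes, KRT7 had 703 ± 60.7 CPM, KRT18 346 ± 89.6 CPM and KRT8 265 ± 60.2 CPM (SD, n = 2 each), while KRT19 had 26 and 25 counts. VIM exceeded the sum of KRT8 and KRT18, which pair in 1 filament, by 8.20-fold in replicate 1 and 9.91-fold in replicate 2 per base of canonical transcript. KRT7, the highest of the 4 genes in CPM, was not part of this sum. KRT7, KRT8 and KRT18 were, like VIM, higher in replicate 1 by edgeR's exact binomial test, with adjusted p values of 1.03e-23, 1.98e-59 and 3.05e-100 for KRT7, KRT8 and KRT18, as were 27.6% of all genes tested. These p values set 1 library against 1 library and cover counting error only.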
